A study of Homo sapiens with 6 samples.

Results

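Keratins are the intermediate filament proteins of epithelial cells, and their genes were taken from the table by symbol alone, as protein-coding genes named KRT with a number and at most a letter A, B or C. This gave 55 keratin genes of 58676 genes listed, 19821 of them protein-coding. A mean of at least 0.5 FPKM (reads on a gene, scaled by its length and by all reads counted in the sample) over the 6 samples was reached by 17 of the 55, and these 17 were tested.

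Keratin filaments are built from pairs of an acidic type I and a basic type II keratin, so that cells make members of both types together. In the breast, KRT5 and KRT14 mark basal cells, and KRT7, KRT8, KRT18 and KRT19 mark luminal cells. KRT15 was put with the basal keratins here as a keratin of the basal layer of stratified epithelia, which does not make it a marker of breast basal cells. KRT6A, KRT6B, KRT16 and KRT17 are induced in wounded and fast-growing epithelia and are called stress keratins. The keratins of suprabasal layers and of hair are little made in glandular epithelium.

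The cells were DCIS.COM, an established human line of the basal type used as a model of ductal carcinoma in situ. The cells of all 6 cultures carried a lentiviral PLKO.1 vector, with a non-silencing control shRNA in 3 NS control samples and an shRNA against BCL9, a co-activator of beta-catenin, in 3 BCL9 KD samples. Each sample came from its own flask, and a single BCL9 shRNA sequence is given in the study's methods, so an effect of that sequence on other genes cannot be told apart from loss of BCL9. The study plated control and BCL9 KD cells into the flasks and does not state how many separate transductions were made. A difference between the transduced populations of cells therefore cannot be told apart from loss of BCL9 either. BCL9 was measured at 6.25, 6.24 and 5.34 FPKM in NS control replicates 1 to 3 and at 2.86, 2.78 and 2.59 FPKM in BCL9 KD replicates 1 to 3 (log2 fold change −0.99, SE 0.0933, adjusted p = 0.00773, limma). Without NS control replicate 2, BCL9 KD replicate 2 or BCL9 KD replicate 3 its adjusted p was between 0.0589 and 0.0700 (limma).

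The keratin genes that were tested lie in 2 clusters of the hg38 genome. The 8 type II genes and KRT18 lay between KRT80, which starts at position 52168996 of chromosome 12, and KRT18, which ends at 52952901. The other 8 type I genes lay on chromosome 17 between KRT10, which starts at 40818117, and KRT17, which ends at 41624842. RefSeq promoters of build GRCh38.p14, from 250 bases before to 50 bases after the start, numbered 38 for 34 of the 55 genes. The letters TATAAA, the core of the TATA box that places the start of transcription, stood on the strand of the gene in 19 of these 38 promoters (50%), and in 7.33% of the 35116 promoters in the RefSeq table. On either strand they stood in 55.3% of the keratin promoters and in 11.5% of all. Of 20 matches on the gene's strand, 16 began between 35 and 20 bases before the start. Neighbouring keratin genes are copies of each other, so their promoters are not independent cases. Among the 17 tested genes, promoters were matched for KRT5, KRT8, KRT9 and KRT10. The 100 bases before the start are shown for 3 of them, a suprabasal keratin with the motif, the main basal type II keratin and a keratin of palm and sole skin, all on the minus strand and 5′ to 3′, with TATAAA in capitals.
KRT10, chr17:40822615-40822714: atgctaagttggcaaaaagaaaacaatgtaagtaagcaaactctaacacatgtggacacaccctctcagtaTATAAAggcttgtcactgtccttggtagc
KRT5, chr12:52520395-52520494: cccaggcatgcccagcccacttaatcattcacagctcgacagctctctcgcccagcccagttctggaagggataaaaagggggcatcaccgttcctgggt
KRT9, chr17:41572060-41572159: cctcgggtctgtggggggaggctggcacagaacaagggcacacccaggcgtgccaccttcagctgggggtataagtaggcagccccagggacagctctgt
In KRT10 the motif began 29 bases before the start, and the exact letters were not found in the windows of KRT5, KRT8 and KRT9, so they stood in 1 of the 4 promoters matched among the tested genes. The other keratin promoters that held them belonged to genes that did not reach the level for a test. Other motifs searched on both strands were TTCNNNGAA of STAT factors, in 5.26% of keratin promoters and 7.66% of all, and CTTTGAT of TCF/LEF factors, in 2.63% and 2.62%. TGANTCA of AP-1 factors was found in 0 of the 38 keratin promoters and in 7.71% of all.

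The keratins that passed the test between BCL9 KD and NS control cells were KRT15 and KRT23, both higher in BCL9 KD. A keratin that did not pass is not thereby shown to be unchanged. KRT15 and KRT23 were 2 of the 17 tested (11.8%), beside 5.87% of all 13745 genes tested, of which 2.96% were called higher and 2.91% lower by limma at an adjusted p under 0.05. With quantile normalization the split was 1 higher (KRT23) and 3 lower (KRT6B, KRT8 and KRT18). The 17 log2 fold changes, on the log2(FPKM + 0.5) scale, ran from −0.58 for KRT86 to 0.78 for KRT23. Their median was −0.02 and their median size 0.20, beside a median of 0.04 and a median size of 0.20 over all genes tested. An unadjusted p under 0.05 was reached by 7 of the 17 keratins, beside 3775 of the 13745 genes tested. The values of BCL9 KD and NS control did not overlap for 8 keratins, 3 higher and 5 lower in BCL9 KD, while 34.2% of all genes tested did not overlap. For such a gene the two-sided exact permutation test gives p = 0.1, the smallest value that 3 samples against 3 allow.

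Keratin genes together took 0.999% ± 0.0950 of all reads in NS control and 0.992% ± 0.0296 in BCL9 KD samples (SD, n = 3 each). The total number of reads counted ran from 15222452 to 22712638 in NS control and from 15665714 to 26949026 in BCL9 KD. In these bulk samples, a smaller share of cells that make a keratin and less RNA of it per cell cannot be told apart. The flasks are separate cultures of 1 line, so p-values measure the spread between these cultures.

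**Figure D1:**
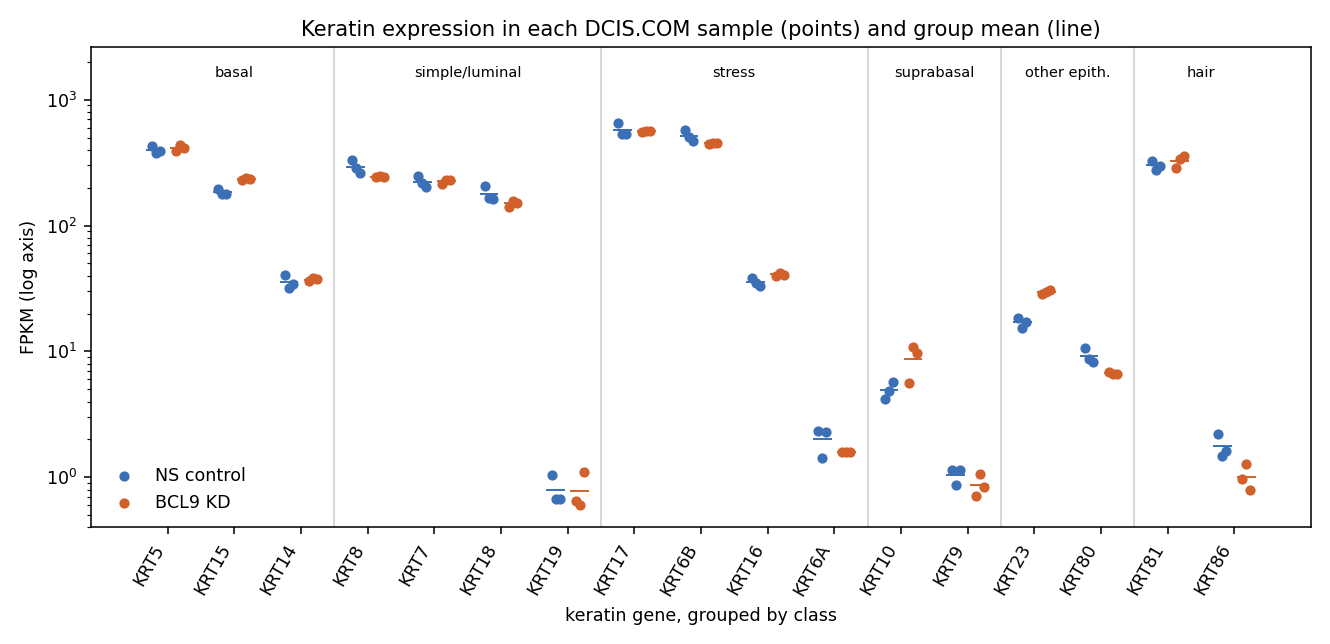
FPKM (log axis) of the 17 tested keratin genes in each of 3 NS control and 3 BCL9 KD samples (points) with the group mean (line), grouped by class. The groups separate upwards for KRT15, KRT16 and KRT23 and downwards for KRT6B, KRT8, KRT18, KRT80 and KRT86, and the levels span from about 0.790 FPKM for KRT19 to 566 FPKM for KRT17 (means of 6 samples).

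Among the basal keratins, KRT15 was higher in BCL9 KD, whereas KRT5 and KRT14, the partners of the basal cell filament, were not called. KRT15, a type I keratin of basal and stem cells of stratified epithelia (chromosome 17, 41513743 to 41522529), was at 195, 178 and 179 FPKM in the NS control replicates and at 231, 240.5 and 232 FPKM in the BCL9 KD replicates. Every BCL9 KD sample lay above every NS control sample, with means of 184 ± 9.68 and 234 ± 5.21 FPKM (SD, n = 3), a fold of 1.27. The log2 fold change was 0.35 (SE 0.0686, 95% confidence interval 0.19 to 0.51, limma adjusted p = 0.0387). The KRT15 call was lost without NS control replicate 2 (limma adjusted p = 0.156) and without BCL9 KD replicate 1, 2 or 3 (0.0536, 0.193 and 0.186), with log2 fold changes from 0.33 to 0.36 in these 4 fits. It was also lost by median-of-ratios scaling (limma adjusted p = 0.109), with no filter (0.111) and in 3 other settings, and over the 11 settings that kept every sample the adjusted p ran from 0.00985 to 0.125. The log2 fold change was 0.18 with quantile normalization.

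KRT5, the basal type II keratin, was at 428, 379 and 388 FPKM in NS control and at 388, 436 and 415 FPKM in BCL9 KD samples. KRT14, its type I partner, was at 40.6, 31.7 and 34.2 FPKM in NS control and at 36.3, 38.0 and 37.3 FPKM in BCL9 KD. The groups overlapped for both genes. The log2 fold change of KRT5 was 0.05 (95% confidence interval −0.14 to 0.25, limma adjusted p = 0.700) and that of KRT14 was 0.07 (−0.16 to 0.31, limma adjusted p = 0.650), and neither passed the test in any alternative. Leaving out 1 sample gave KRT5 log2 fold changes from 0.01 (without BCL9 KD replicate 2) to 0.11 (without NS control replicate 1), and KRT14 from −0.00285 (without NS control replicate 2) to 0.17 (without NS control replicate 1). With all samples it ran from −0.06 with quantile normalization to 0.16 with a correction for GC content for KRT5, and from 0.03 with median-of-ratios scaling to 0.18 with the GC correction for KRT14. KRT5 stood 11.3-fold ± 0.720 above KRT14 in NS control and 11.1-fold ± 0.383 in BCL9 KD by the deposited gene length (15.5-fold and 15.3-fold by the MANE Select length). The ratio of KRT15 to KRT14 was 5.22 ± 0.402 in NS control and 6.30 ± 0.0709 in BCL9 KD by the deposited gene length, and 15.4 and 18.7 by the length of the main transcript (MANE Select), with no overlap between the groups by either.

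None of the 4 tested simple or luminal keratins was called by limma or by voom, and 1, KRT8, had an unadjusted p under 0.05. Over all genes tested limma called 5.87%, and 3775 of 13745 had such a p, so counts this small in a class of 4 say nothing particular about it. KRT8 and KRT18, which pair with each other in luminal cells, were at lower values in every BCL9 KD sample than in any NS control sample. Over all genes tested, 34.2% did not overlap between the groups. KRT8 was at 333, 285 and 262 FPKM in NS control and at 243, 246 and 242 FPKM in BCL9 KD (log2 fold change −0.26, 95% confidence interval −0.49 to −0.03, limma adjusted p = 0.144). KRT18 was at 205, 165 and 161 FPKM in NS control and at 142, 156 and 152 FPKM in BCL9 KD (−0.24, −0.49 to 0.02, limma adjusted p = 0.207). The NS control samples were the more spread for both genes, and NS control replicate 1 was the highest. Without that sample the log2 fold change was −0.16 for KRT8 and −0.13 for KRT18. The ratio of KRT8 to KRT18 was 1.66 ± 0.0560 in NS control and 1.63 ± 0.0744 in BCL9 KD by the deposited length, or 2.81 and 2.76 by the MANE Select length, and the groups overlapped. KRT8 and KRT18 passed the test only with quantile normalization (log2 fold changes −0.40 and −0.37, limma adjusted p = 0.0329 and 0.0346), while with the GC correction the log2 fold changes were −0.15 and −0.13 (limma adjusted p = 0.0996 and 0.175). Over all alternatives the adjusted p ran up to 0.361 and 0.409.

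KRT7, a further type II keratin of simple epithelia, was at 249, 218 and 201 FPKM in NS control and at 215, 228 and 229 FPKM in BCL9 KD. All 3 BCL9 KD values fell within the range of the NS control values, and the log2 fold change of 0.02 (−0.21 to 0.24, limma adjusted p = 0.929) was 0.12 with the GC correction, −0.03 with median-of-ratios scaling and −0.21 with quantile normalization. It ran from −0.06 without NS control replicate 3 to 0.10 without NS control replicate 1. KRT19, a luminal type I keratin that is widely used as a carcinoma marker, was at 1.04, 0.677 and 0.675 FPKM in NS control and at 0.654, 0.604 and 1.09 FPKM in BCL9 KD. It was the lowest of the 17 by the deposited length, with 24 to 55 reads a sample, and no difference was detectable at this depth (log2 fold change −0.02, −0.51 to 0.47, with −0.19 without BCL9 KD replicate 3 and 0.11 without NS control replicate 1).

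The stress keratins were the most abundant class by the deposited length, and none of the 4 tested was called by limma or by voom, with 1, KRT16, at an unadjusted p under 0.05 (beside the same 5.87% and 3775 of 13745 over all genes). KRT17 was at 649.6, 532 and 529 FPKM in NS control and at 556, 562 and 566 FPKM in BCL9 KD, with a log2 fold change of −0.02 (−0.25 to 0.21, limma adjusted p = 0.925). The BCL9 KD values lay between those of NS control replicate 1 and the other NS control samples, and the log2 fold change was 0.08 without NS control replicate 1 and −0.07 without NS control replicate 3. It was −0.28 with quantile normalization (limma adjusted p = 0.0652), outside that interval, and 0.09 with the GC correction (0.303). KRT6B was at 569, 502 and 468 FPKM in NS control and at 441, 456 and 454 FPKM in BCL9 KD (−0.18, −0.39 to 0.03, limma adjusted p = 0.237), with −0.10 on the log2 scale without NS control replicate 1. KRT16, a type I stress keratin, was at 38.2, 35.2 and 33.3 FPKM in NS control and at 40.1, 41.9 and 40.7 FPKM in BCL9 KD (0.20, 0.03 to 0.37, limma adjusted p = 0.132). Neither gene overlapped between the groups, which was also so for 34.2% of all genes tested. KRT6B and KRT16 lay on opposite sides, so that the ratio of KRT6B to KRT16 was 14.4 ± 0.456 in NS control and 11.0 ± 0.138 in BCL9 KD by the deposited length, or 9.56 and 7.31 by the MANE Select length. The ratio of KRT6B to KRT17, which it is known to pair with, was 0.901 ± 0.0362 in NS control and 0.802 ± 0.00981 in BCL9 KD by the deposited length, with no overlap. KRT6B passed the test with quantile normalization (log2 fold change −0.36, limma adjusted p = 0.0342) but had a log2 fold change of −0.07 with the GC correction (0.369). KRT16 passed with the GC correction (0.30, limma adjusted p = 0.0233), and over all alternatives the adjusted p of KRT6B and KRT16 ran up to 0.546 and 0.359. KRT6A, close in sequence to KRT6B, was at 2.33, 1.42 and 2.31 FPKM in NS control and at 1.60, 1.58 and 1.59 FPKM in BCL9 KD (−0.24, −0.64 to 0.15, limma adjusted p = 0.376). The log2 fold change of KRT6A was −0.43 without NS control replicate 2, −0.15 without NS control replicate 1 or 3 and −0.14 with the GC correction. KRT6B was 267-fold ± 78.2 above KRT6A in NS control and 283-fold ± 6.91 in BCL9 KD by the deposited length, or 208-fold and 221-fold by the MANE Select length.

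Of the 12 suprabasal or differentiation keratins, KRT10 and KRT9 were tested and neither was called by limma or by voom, with 1, KRT10, at an unadjusted p under 0.05 (beside 5.87% called and 3775 of 13745 over all genes). KRT10, the type I keratin that replaces KRT14 as keratinocytes leave the basal layer, was at 4.19, 4.84 and 5.75 FPKM in NS control and at 5.59, 10.9 and 9.65 FPKM in BCL9 KD. Its log2 fold change of 0.72 (SE 0.239, 0.16 to 1.29, limma adjusted p = 0.111) was close in size to that of KRT23 but did not pass the test. BCL9 KD replicate 1 lay within the range of the NS control samples, and without that sample the log2 fold change was 1.0 (limma adjusted p = 0.0279), against up to 0.316 without another sample. KRT10 was also called in 1 of the 11 alternative settings that kept every sample (limma adjusted p = 0.0473). KRT1, the type II partner of KRT10 in skin, had 0 reads in every sample. TMEM99, a gene on the opposite strand that overlaps KRT10 over 3490 bases, was at 2.56 ± 0.214 FPKM in NS control and 3.21 ± 0.497 FPKM in BCL9 KD, and its part in the KRT10 value was not tested. KRT9, a keratin of palm and sole skin, was at 1.13, 0.863 and 1.15 FPKM in NS control and at 0.716, 1.07 and 0.836 FPKM in BCL9 KD (−0.17, −0.56 to 0.21, limma adjusted p = 0.501). Its log2 fold change was −0.27 without BCL9 KD replicate 2, −0.26 without NS control replicate 2, −0.09 without BCL9 KD replicate 1 and −0.07 with the GC correction.

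KRT23 had the largest log2 fold change of the 17 keratins. KRT23, a type I keratin outside the classical pairs (chromosome 17, 40922696 to 40937634), was at 18.6, 15.5 and 17.2 FPKM in NS control and at 28.3, 29.7 and 30.6 FPKM in BCL9 KD. The groups stood well apart, with means of 17.1 ± 1.55 and 29.5 ± 1.11 FPKM, a fold of 1.73, and a log2 fold change of 0.78 (SE 0.0840, 0.58 to 0.97, limma adjusted p = 0.0106). The KRT23 call was lost without NS control replicate 2 (limma adjusted p = 0.0636), BCL9 KD replicate 2 (0.0860) or BCL9 KD replicate 3 (0.0922), at log2 fold changes from 0.71 to 0.77. It held in 10 of the 11 settings that kept every sample, over which the adjusted p ran up to 0.0783 (limma). KRT80, a type II keratin found in many epithelia, was at 10.6, 8.77 and 8.25 FPKM in NS control and at 6.85, 6.63 and 6.56 FPKM in BCL9 KD (log2 fold change −0.43, SE 0.103, −0.67 to −0.18, limma adjusted p = 0.0565). All BCL9 KD values of KRT80 were lower than any NS control value, and it passed the test without NS control replicate 3 (limma adjusted p = 0.0379), with voom on reads (0.0374), over genes with a mean of at least 1 FPKM (0.0489) and with the GC correction (0.0295), while its adjusted p ran up to 0.212 in the other alternatives.

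**Figure D2:**
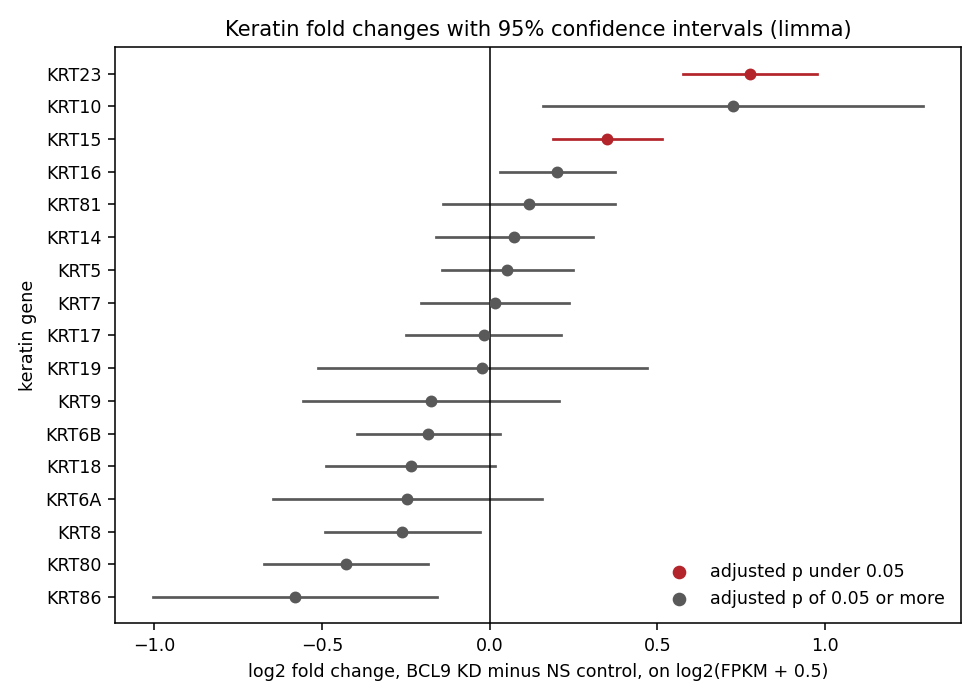
Log2 fold change of BCL9 KD minus NS control on the log2(FPKM + 0.5) scale for the 17 tested keratins (points) with 95% confidence intervals from limma (lines), red where the adjusted p was under 0.05. KRT15 at 0.35 and KRT23 at 0.78 are the red points, and the intervals of KRT8, KRT10, KRT16, KRT80 and KRT86 also leave out 0.

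Of the hair keratins, KRT81 was expressed at a level near that of KRT8 and above those of KRT7 and KRT18 by the deposited length, and below all 3 by the MANE Select length. KRT81, a type II keratin of the hair cortex, was at 327, 278 and 298 FPKM in NS control and at 285, 341 and 355 FPKM in BCL9 KD, with overlapping groups (log2 fold change 0.12, −0.14 to 0.37, limma adjusted p = 0.499). The log2 fold change of KRT81 was 0.21 without BCL9 KD replicate 1, 0.18 without NS control replicate 1, and 0.06 without BCL9 KD replicate 3 or NS control replicate 2. It was 0.22 with the GC correction, 0.07 with median-of-ratios scaling and 0.02 with quantile normalization. KRT86, a hair type II keratin that is nearly its copy, was at 2.21, 1.47 and 1.62 FPKM in NS control and at 0.969, 1.27 and 0.80 FPKM in BCL9 KD (−0.58, SE 0.178, −1.0 to −0.16, limma adjusted p = 0.0967). The groups of KRT86 did not overlap, but it rested on 30 to 120 reads a sample. The ratio of KRT81 to KRT86 was 174 ± 22.4 in NS control and 336 ± 95.1 in BCL9 KD.

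Near-identical stretches and overlaps limit how well reads of these genes can be told apart. KRT81 shared 30.3% and KRT86 27.6% of the 100-base windows of its MANE Select transcript with another gene, chiefly each other and the pseudogene KRT87P. Windows shared with KRT6C, KRT6A or KRT5 made up 24.4% of KRT6B, and 18.2% of KRT6A was shared with its relatives. In KRT8 and KRT16 the share was 7.12% each, for KRT8 with its pseudogenes, and for KRT16 with its pseudogenes and KRT14. In KRT14 it was 6.05%, in KRT5 1.64% and in KRT17 0.353%. KRT15, KRT23, KRT7, KRT18, KRT19, KRT9, KRT10 and KRT80 shared no window. Reads on pseudogenes of KRT16 came to 5.85% of those on KRT16, those of KRT8 to 0.440% and those of KRT18 to 0.280%. KRT81 lies within KRT86 on the opposite strand, KRT7 and KRT86 overlap on the same strand over 2887 bases, and KRT8 and KRT18 overlap on opposite strands over 1084 bases. An antisense gene that spans the KRT23 locus held 2 to 12 reads a sample. The strand setting of the counting is not given in the sources used here, so antisense reads cannot be told apart from those of the gene.

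The order of the keratins by level depended on the gene length used. With the deposited gene length, KRT17 came first at 566 FPKM over the 6 samples, followed by KRT6B at 482, KRT5 at 406, KRT81 at 314, KRT8 at 269, KRT7 at 223, KRT15 at 209 and KRT18 at 163. The ranges of neighbours overlapped from KRT81 to KRT18 and for KRT17 and KRT6B, but not between KRT6B and KRT5 or between KRT5 and KRT81. A step down followed to KRT16 at 38.2, KRT14 at 36.4, KRT23 at 23.3, KRT80 at 7.95, KRT10 at 6.82, KRT6A at 1.81, KRT86 at 1.39, KRT9 at 0.961 and KRT19 at 0.790. Ranges did not overlap between KRT18 and KRT16, KRT14 and KRT23, KRT23 and KRT80, or KRT10 and KRT6A. The deposited length was 4.13 times the MANE Select transcript for KRT15 and 3.86 times for KRT8, against 0.991 times for KRT6B and 1.00 for KRT81.

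With the MANE Select length, KRT8 came first at 1036 FPKM, before KRT17 at 946, KRT15 at 864, KRT5 at 778, KRT7 at 563, KRT6B at 477, KRT18 at 372 and KRT81 at 314. KRT8 and KRT15 moved up to rank 1 and 3 from rank 5 and 7 by the deposited length, while KRT6B moved down from rank 2 to 6. Neighbouring ranges among these 8 overlapped except between KRT5 and KRT7. Since the length of a gene is the same in every sample, it leaves the fold change of a single gene between groups unchanged apart from the added 0.5 FPKM. Sums over several genes do depend on it. The log2 ratio of BCL9 KD to NS control was 0.15 by the deposited and 0.20 by the MANE Select length for basal keratins, and 0.05 and 0.10 for type I keratins.

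**Figure D3:**
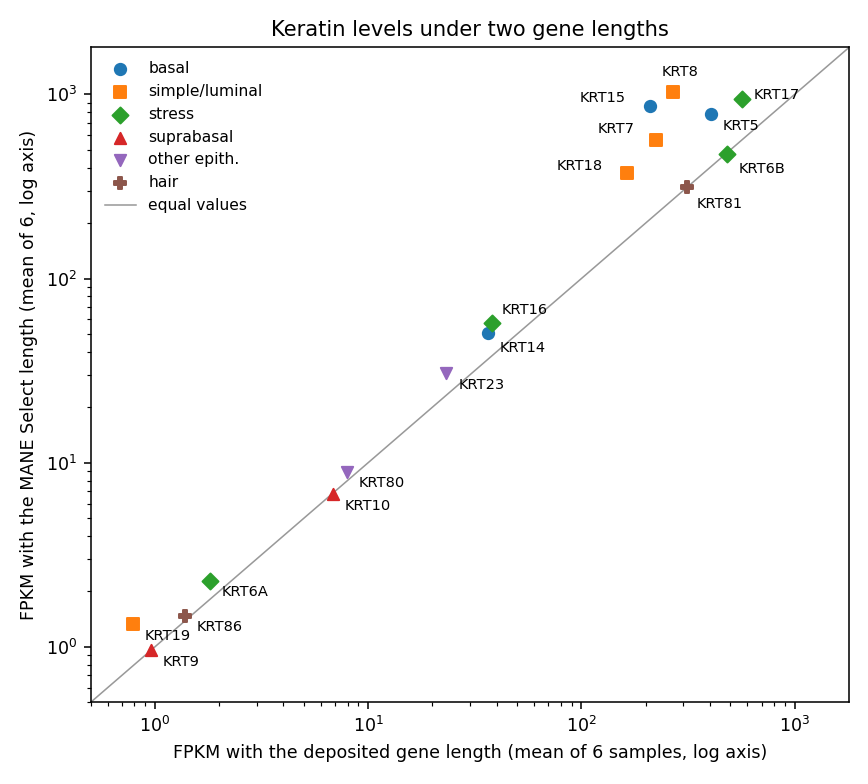
Mean FPKM over the 6 samples of each of the 17 tested keratins with the deposited gene length (x, log axis) and with the length of the MANE Select transcript (y, log axis), marked by class, with the line of equal values. KRT15 and KRT8 lie farthest above the line, at 209 and 864 FPKM and at 269 and 1036 FPKM, and KRT81 and KRT6B lie on or next to it.

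Summed over each class, the levels gave the make-up of the keratin mRNA pool. The basal keratins summed to 663, 588 and 601 FPKM in NS control and to 655, 714 and 684 FPKM in BCL9 KD, with means of 618 ± 40.1 and 685 ± 29.5 FPKM and overlapping groups. Their means in NS control and BCL9 KD were 398 and 413 FPKM for KRT5, 35.5 and 37.2 FPKM for KRT14, and 184 and 234 FPKM for KRT15. The simple or luminal keratins summed to 694 ± 85.0 FPKM in NS control and 618 ± 16.1 FPKM in BCL9 KD, and the stress keratins to 1121 ± 122 and 1054 ± 13.3 FPKM. NS control replicate 1 had the highest sum of the NS control samples in each of these 3 classes. The log2 ratio of BCL9 KD to NS control was −0.17 for luminal and −0.09 for stress keratins, and without that sample it was −0.0647 and 0.0034. As a share of all keratin FPKM, basal keratins made up 22.4% ± 0.820 in NS control and 25.1% ± 0.449 in BCL9 KD, luminal keratins 25.0% ± 0.817 and 22.6% ± 0.208, and stress keratins 40.5% ± 0.558 and 38.6% ± 0.879. With the MANE Select length, these shares were 28.5% and 33.0% for basal, 37.9% and 33.6% for luminal, and 27.4% and 26.4% for stress keratins. The largest class was thus the stress keratins by the deposited length and the luminal keratins by the MANE Select length.

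Over all 55 genes the keratin sum was 2769 ± 268 FPKM in NS control and 2732 ± 94.96 FPKM in BCL9 KD. Type I keratins summed to 1027 ± 110.3 FPKM in NS control and 1064 ± 20.6 FPKM in BCL9 KD, and type II keratins to 1742 ± 158 and 1668 ± 74.6 FPKM. Both called keratins were of type I, of which 9 were tested, and none of the 8 tested type II keratins was called by limma as set, beside 5.87% of all genes tested, with 3 at an unadjusted p under 0.05 (beside 3775 of the 13745 genes). Of type II, limma called KRT6B and KRT8 lower with quantile normalization. It called KRT80 lower without NS control replicate 3, over genes with a mean of at least 1 FPKM and with the GC correction, and voom called KRT80 lower. The difference between the types was not tested. The hair keratins summed to 303 ± 25.1 and 328 ± 36.9 FPKM, nearly all of it KRT81, and the suprabasal keratins to 6.61 ± 0.969 and 10.2 ± 3.02 FPKM. The other epithelial keratins, mainly KRT23 and KRT80, summed to 26.3 ± 2.58 FPKM in NS control and 36.2 ± 0.958 FPKM in BCL9 KD and were the only class whose sums did not overlap between the groups. The higher sum was that of KRT23 alone (means of 17.1 and 29.5 FPKM), since KRT80 was lower in BCL9 KD (9.21 and 6.68 FPKM).

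**Figure D4:**
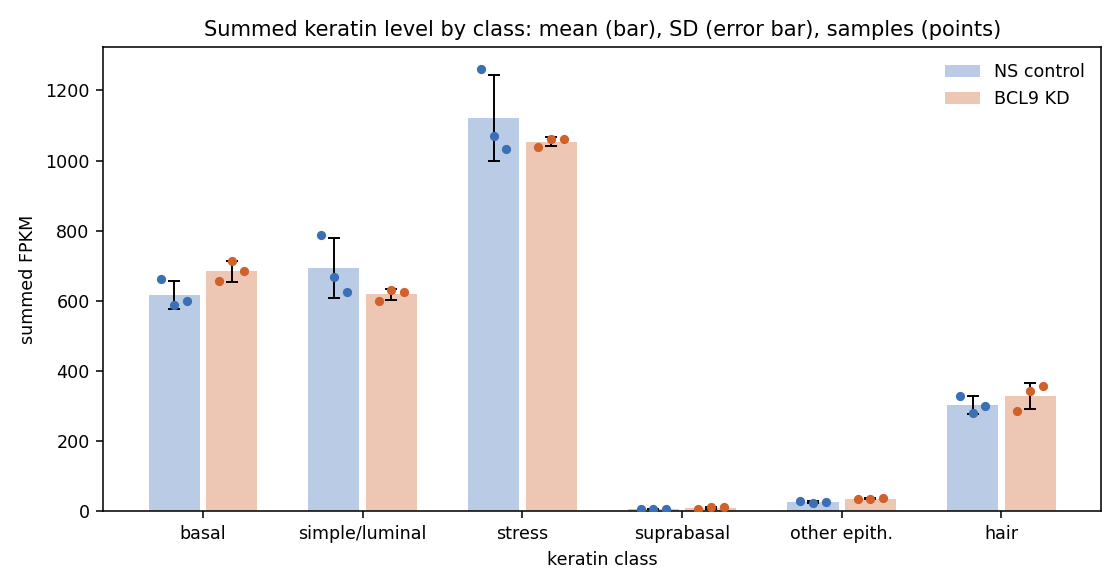
Summed FPKM of each keratin class in NS control and BCL9 KD samples, with the group mean (bar), SD (error bar, n = 3) and each sample (points). Basal sums were 618 and 685 FPKM, luminal sums 694 and 618 FPKM and stress sums 1121 and 1054 FPKM in NS control and BCL9 KD, and the points of the groups overlap in each of these 3 classes.

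The other 38 keratin genes did not reach the level needed for a test. No read was found in any sample for 20 of them. These were the suprabasal and corneal keratins KRT1, KRT2, KRT12, KRT76 and KRT77, KRT24 and KRT222, and 13 hair or hair follicle keratins. The other 18 had some reads. KRT6C, a stress keratin, had 35, 34 and 12 reads in NS control and 13, 31 and 18 reads in BCL9 KD. KRT13, a keratin of mucosal epithelia, had 36, 8 and 22 reads in NS control and 15, 28 and 13 reads in BCL9 KD, and its partner KRT4 had 9, 12 and 14 and then 12, 21 and 19 reads. The remainder stayed at 4 reads or fewer in every sample, KRT20 of the gut and bladder lining among them with 2 reads in a single BCL9 KD sample. A count of 0 in a sample still allows an expected count of up to about 3 reads at its depth.

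Proteins that anchor or organise keratin filaments were read from the same test, as a list of 16 genes of which 15 were tested. EPPK1 was lower and HSPB1 higher in BCL9 KD, 2 of 15 called (13.3%, beside 5.87% of all genes tested), with a median log2 fold change of −0.13 over the list beside 0.04 over all genes tested. EPPK1 encodes epiplakin, a plakin protein that binds keratin filaments. It was at 2.80, 2.63 and 2.19 FPKM in NS control and at 0.958, 0.80 and 0.678 FPKM in BCL9 KD (log2 fold change −1.21, SE 0.138, limma adjusted p = 0.0117). HSPB1 encodes a small heat shock protein that associates with keratin filaments. It was at 51.9, 39.8 and 39.8 FPKM in NS control and at 65.4, 78.6 and 78.4 FPKM in BCL9 KD (0.76, SE 0.129, limma adjusted p = 0.0301). Neither gene overlapped between the groups. Without NS control replicate 2, BCL9 KD replicate 2 or BCL9 KD replicate 3, the limma adjusted p rose to between 0.0808 and 0.0863 for EPPK1 and to between 0.133 and 0.153 for HSPB1. Over the other alternatives it reached up to 0.0656 for EPPK1 and 0.0983 for HSPB1. The largest other values were those of DST, the plakin of hemidesmosomes, with 3.02, 5.62 and 9.95 FPKM in NS control and 12.1, 7.47 and 9.16 FPKM in BCL9 KD (0.70, limma adjusted p = 0.272), and of PNN, a desmosome-associated protein that also works in splicing. PNN was at 20.8, 33.2 and 51.3 FPKM in NS control and at 48.6, 49.6 and 53.0 FPKM in BCL9 KD (0.61, limma adjusted p = 0.223), and passed the test without NS control replicate 3 (0.92, limma adjusted p = 0.0383, against up to 0.430 without another sample), while the log2 fold change was 0.28 without NS control replicate 1. For DST it ran from 0.31 without NS control replicate 1 to 1.09 without NS control replicate 3, with an adjusted p of 0.507 and 0.0544 (limma). The NS control samples alone spanned more than the difference between the groups for DST and PNN. PLEC, which encodes plectin, a plakin that links filaments to hemidesmosomes, is added after its values were seen. It was at 124, 121 and 102 FPKM in NS control and at 92.5, 74.9 and 76.8 FPKM in BCL9 KD, with no overlap (log2 fold change −0.51, limma adjusted p = 0.0501). PLEC was called in 5 of 11 settings that kept every sample and in 2 of 6 that left out 1.

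Transcription factors of epithelial programmes that include keratin genes were a list of 14, all tested. STAT3, a factor of the cytokine response that can induce KRT17 in skin, was the single one called (7.14%, beside 5.87% of all genes tested), at 39.0, 33.1 and 31.1 FPKM in NS control and at 24.5, 22.9 and 22.0 FPKM in BCL9 KD (log2 fold change −0.56, SE 0.0990, limma adjusted p = 0.0325). The call was lost without NS control replicate 2 (limma adjusted p = 0.131), BCL9 KD replicate 2 (0.156) or BCL9 KD replicate 3 (0.159), and over the other alternatives the adjusted p ran from 0.0145 to 0.0850. NFE2L2, the factor of the oxidative stress response, was at 6.47, 8.0 and 10.6 FPKM in NS control and at 11.1, 11.3 and 11.4 FPKM in BCL9 KD (0.44, limma adjusted p = 0.139), and passed the test without NS control replicate 3 (0.61, limma adjusted p = 0.0298, against up to 0.337 without another sample), while the log2 fold change was 0.28 without NS control replicate 1. KLF5, a factor of proliferating basal cells, was at 10.6, 12.4 and 12.1 FPKM in NS control and at 15.6, 15.1 and 14.8 FPKM in BCL9 KD (0.36, limma adjusted p = 0.0501). Every KLF5 value in BCL9 KD lay above the NS control values, and the test was passed without NS control replicate 1 or 3 and in 5 other settings. The median log2 fold change of the list was 0.06.

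Markers of cell identity were read in the same samples, and their counts stand beside 5.87% called over all genes tested, 2.96% higher and 2.91% lower. All 6 epithelial markers (EPCAM, CDH1, TP63, EGFR, ITGA6 and LAMB3) were expressed and none was called, with sums from 646 to 762 FPKM in NS control and from 702 to 747 FPKM in BCL9 KD. Of 5 markers of hormone-receptor luminal cells, 3 were tested and AGR2 was higher in BCL9 KD (log2 fold change 1.39, limma adjusted p = 0.00773), at means of 0.775 and 2.83 FPKM. The other 2 tested, GATA3 and FOXA1, overlapped between the groups at a log2 fold change of −0.04 each (limma adjusted p = 0.837 and 0.812), so that the higher sum in BCL9 KD was that of AGR2. PGR had no reads, and the sums were 11.3 to 13.3 FPKM in NS control and 13.2 to 14.4 FPKM in BCL9 KD. Of 5 contractile myoepithelial markers, 3 were tested and TAGLN and MYLK were lower in BCL9 KD (−0.79 and −0.46, limma adjusted p = 0.0486 and 0.0199), ACTA2 was not called (−0.33, limma adjusted p = 0.259), CNN1 had no reads, and the sums were 13.0 to 13.4 FPKM in NS control and 8.89 to 9.21 FPKM in BCL9 KD. Markers of other cell types were low, and their sums were higher in every BCL9 KD sample than in any NS control sample. They were 0.710 to 0.737 FPKM in NS control and 0.768 to 0.905 FPKM in BCL9 KD for 8 fibroblast genes, of which COL1A1 was tested and not called (log2 fold change 0.10, limma adjusted p = 0.693, with 0.06 to 0.16 when 1 sample was left out and 0.05 to 0.22 in the other settings). For 6 blood genes they were 0.294 to 0.560 and 0.778 to 1.38 FPKM, of which CD14 was tested and not called (log2 fold change 0.73, limma adjusted p = 0.0811), though it was called in 1 of 10 other settings, over which its log2 fold change ran from 0.51 to 1.27. For 4 endothelial genes they were 1.80 to 2.42 and 3.22 to 4.06 FPKM, and the 1 tested, PECAM1, was higher in BCL9 KD (0.61, limma adjusted p = 0.0477). With a sample left out in turn, AGR2 and MYLK kept their calls in 3 of 6 fits, PECAM1 in 1 and TAGLN in 0 (limma adjusted p = 0.0634 to 0.198 for TAGLN). In settings that kept every sample, AGR2 was called in 10 of 11, MYLK in 9 of 11, PECAM1 in 5 of 11 and TAGLN in 4 of 10. The log2 fold changes of TAGLN ran from −1.43 to −0.54 over these settings. COL3A1, HBB and HBA1 had no reads. The part of these markers in the values of KRT15 and KRT23 was not tested.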

How the data were processed

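RNA of 3 NS control and 3 BCL9 KD cultures was sequenced as paired-end libraries (NEBNext Ultra RNA kit). Per the methods and the submitters' processing notes, reads were aligned to hg38 by STAR and assigned to genes by HTSeq 0.6.1, and the authors deposited FPKM values with the gene length in bases, which is in other units. No column of sample values was left unused (0). FPKM times gene length fell on whole multiples of a step for 100% of values (tolerance 0.1), which returned the reads on each gene. Depth therefore limits mainly keratins with few reads, and intervals cover the spread between cultures. Replicates correlated at 0.964 to 0.977 in NS control and 0.979 to 0.987 in BCL9 KD (Pearson, log2 values), so none was a duplicate.

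limma 3.58.1 in R 4.3.3 (trend in empirical Bayes) compared BCL9 KD with NS control on log2(FPKM + 0.5) for the 13745 genes whose mean reached 0.5 FPKM, with Benjamini-Hochberg adjustment over all of them and a threshold of 0.05. The study tested with a count model; here the deposited unit was kept for the main test, and voom on the recovered reads was an alternative. The script was tested on simulated data. Single genes were also compared by a two-sided exact permutation test. Sums, sequences and plots were made in Python 3.11 with pandas 2.3.3, numpy 2.4.6 and matplotlib 3.10.9, and permutation tests with scipy 1.17.1. Samples were grouped by their labels.

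The members and gene lists were chosen with earlier results of these data known. Genes were named by a rule: every keratin tested, list genes with an adjusted p under 0.05 and the 2 largest others of each list, and BCL9. PLEC was added after its values were seen. Marker genes were named where called, where tested beside a called one, where the single one tested of a list, or at 0 reads, except 1 that is not reported here. The alternatives changed the added FPKM (1 or 0.1), the filter (none, or a mean of at least 1 FPKM), the scaling (quantile or median-of-ratios), the trend (none) and the samples (each left out in turn), used voom on the recovered reads, or took the replicate number as a block. The GC correction (loess, span 0.3, GC content known for 98.8% of tested genes from a GRCh37 annotation, with and without the block) and the MANE Select lengths were chosen after seeing the data. Shared windows were 100-base matches among the transcripts of that annotation, and gene positions are from hg38. RPPA, ChIP and other assays of the study were not used here.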

Additional observations from a re-analysis of the deposited data

How the results depend on the processing

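Of the log2 fold changes of 25 named genes, those of 5 changed sign under an alternative, and the cause was not tested. With each replicate left out in turn, KRT17 ran from −0.0674 to 0.0801 (the value without NS control replicate 1), KRT7 from −0.0566 (without NS control replicate 3) to 0.0989, KRT14 from −0.00285 (without NS control replicate 2) to 0.174 and KRT19 from −0.188 to 0.106. With the GC correction, alone or with the replicate block, KRT17 was at 0.0909 and KRT19 at 0.0787. Quantile normalization put KRT5 at −0.0553, KRT7 at −0.214 and KRT17 at −0.285 (adjusted p = 0.0652, limma), and KRT7 was at −0.0288 by median-of-ratios scaling. Called genes, 807 in the comparison as set, were 142 with no filter (30731 genes tested), 536 with median-of-ratios scaling, 332 without the trend, 1400 with voom, 1507 with the GC correction and 381 with the GC correction and the block. The GC correction gave 975 higher and 532 lower genes against 407 and 400. Called keratins, 2 as set, were 1 with no filter, with median-of-ratios scaling or without the trend, and 4 with quantile normalization (KRT23 higher, KRT6B, KRT8 and KRT18 lower) or with the GC correction (KRT15, KRT16 and KRT23 higher, KRT80 lower), and 3 with the GC correction and the block (KRT10, KRT15 and KRT23 higher). The KRT15 call was lost in the first 3 of these, with quantile normalization (adjusted p = 0.0855, limma) and under the block. Called linkers, 2 as set, were 1 with no filter, median-of-ratios scaling or no trend and 4 with the GC correction. Called transcription factors, 1 as set, were 0 with no filter or no trend and 2 with an added 1 FPKM, a mean of at least 1 FPKM, quantile normalization, voom or the GC correction. Leaving out a replicate gave 5 to 1729 called genes, 0 to 3 keratins, 0 to 5 linkers and 0 to 4 transcription factors. The fewest genes, 12, 13 and 5, came without NS control replicate 2, BCL9 KD replicate 2 and BCL9 KD replicate 3, and these fits kept 0 keratins, linkers and factors. Replicate numbers are shared between the groups, but same-numbered samples did not deviate together (mean correlation −0.0795, and 0.0387 for different numbers). The limma fit with the replicate block called 0 genes, with 3235 at an unadjusted p under 0.05 and 3775 without it, and so 0 keratins (KRT23 at an adjusted p = 0.0783), linkers and factors. Summed levels moved by more than the spread between replicates with quantile normalization, to log2 ratios of 0.0267 for basal, −0.33 for luminal, −0.31 for stress, −0.15 for type I, −0.21 for type II and −0.19 for all keratins, from 0.15, −0.17, −0.09, 0.05, −0.06 and −0.02. Without NS control replicate 1 the log2 ratio of the sums was −0.0647 for luminal, 0.0034 for stress, 0.0149 for type II and 0.0635 for all keratins, and without BCL9 KD replicate 1 it was 0.0094 for all keratins. Among the other values, 356 for single genes kept their direction and their side of the threshold, 19 single-gene values passed the threshold and 34 lost it. Of the counts and sums, 100 values moved by at most 1.5 times (counts) or by less than the spread between replicates (sums). Reads of 24 to 120 a sample limit KRT9, KRT19 and KRT86.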
